A study of Sus scrofa with 2 samples.

Results

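Striated muscle myosins and myosin-binding proteins, the main proteins of the thick filament, were followed in the longissimus dorsi muscle (LM) of Shaziling and Yorkshire pigs. Of the 65535 unigenes (assembled transcript fragments) in the deposited table, 13 were assigned to this group, and they represented 8 genes. They were 6 unigenes whose nr protein match was a RefSeq protein of pig MYH1, MYH4, MYLPF, MYL3 or MYBPC2, and 7 further unigenes that carry a striated muscle myosin name of UniProt in the authors' list of differentially expressed unigenes. Each breed, the Chinese indigenous Shaziling and the lean Yorkshire, was sampled as 3 male full sibs, slaughtered at an age of 25 days, and LM RNA was sequenced. The deposited columns hold 1 value per breed for the 3 animals together, so each breed is 1 library, the spread between pigs is not known, and breed and family cannot be told apart. The table covers part of the assembly, with 29537057 reads in Yorkshire and 20575805 in Shaziling, and unigenes outside it were not analysed here. Breeds were taken from sample titles and column names, whereas a characteristics field of the samples assigns the indigenous class to Yorkshire and the lean class to Shaziling.

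Myosin is the motor of muscle contraction. A pair of heavy chains forms its heads and its rod, light chains stiffen the lever arm of each head, and myosin-binding protein C holds the heads in order along the thick filament. Each of these exists in fast and slow forms encoded by separate genes, and the set that is expressed defines the type of a fibre. In pigs the LM is a predominantly fast, glycolytic muscle. MYH4 encodes the heavy chain of type IIb fibres and MYH1 that of type IIx fibres. MYH7 encodes the heavy chain of slow fibres, and MYH8 the perinatal heavy chain, which is replaced as fibres mature. MYLPF is the fast regulatory light chain, and MYL3 the essential light chain of slow and ventricular muscle. MYBPC2 and MYBPC1 are the fast and slow forms of myosin-binding protein C.

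The values are RPKM, read numbers scaled by unigene length and by the reads of the library, with library totals, worked out from the reads, lengths and RPKM values, of 33949238 reads for Yorkshire and 28305925 for Shaziling. Ratios compare RPKM values, and their exact 95% intervals (Clopper-Pearson, on the reads) cover counting error only. No difference below has a replicate check, and no p-value is given. A unigene was counted as higher in a library at a ratio of 2 or more with an RPKM of at least 1 in 1 or both libraries. In bulk muscle, fewer fibres of a type and less RNA per fibre cannot be told apart. The authors' list was made for differences of at least 2-fold between these same libraries. The 7 members named through it alone therefore had to differ, and their ratios are descriptions. The 6 members with a RefSeq match were named by their protein, and all but contig_53 and contig_121 are also on the list.

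All 13 members passed the RPKM minimum. At least 2 times higher in Shaziling were 7 unigenes, 4 were at least 2 times higher in Yorkshire, and 2 were neither. Over all unigenes that passed this minimum, 39.6% had such a difference toward Shaziling and 15.3% toward Yorkshire. Of the 6 members with a RefSeq match, 4 were higher in Shaziling, 0 in Yorkshire and 2 were neither. The share of unigenes higher in Shaziling differed with abundance. It was 35.5% (Yorkshire, 7.18%) where 1 or both libraries reached 10 RPKM, and 47.3% (Yorkshire, 4.65%) for the 387 unigenes that reached 100 RPKM, as the 6 RefSeq-matched members did. These 6 members had a median log2 ratio (Shaziling over Yorkshire) of 1.54, and the 387 abundant unigenes one of 0.93.

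The scaling of the libraries bears on every ratio. A pair of mitochondrial unigenes took 46.4% of all reads in Yorkshire and 11.8% in Shaziling. Both were named through the authors' list of differing unigenes. Totals below that leave out the mitochondrial unigenes leave out this pair alone, and any other mitochondrial unigenes stayed in. For 2363 unigenes above 10 RPKM in each library, the median log2 ratio was 0.35 with the deposited values, and -0.36 with totals that leave out the mitochondrial unigenes. The ratios of 2 members, contig_53 and contig_121, fell below 1 with these totals, and the other 11 kept their direction under each scaling tried. Under each of the 4 other scalings, 5 rather than 7 members were at least 2-fold higher in Shaziling, since contig_11 (1.54 to 1.99) and contig_186 (1.25 to 1.60) were then under the limit. The shares over all unigenes given above are for the deposited values only, so this count has no share to be set against. Ratios between members within a library do not depend on the scaling.

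**Figure D1:**
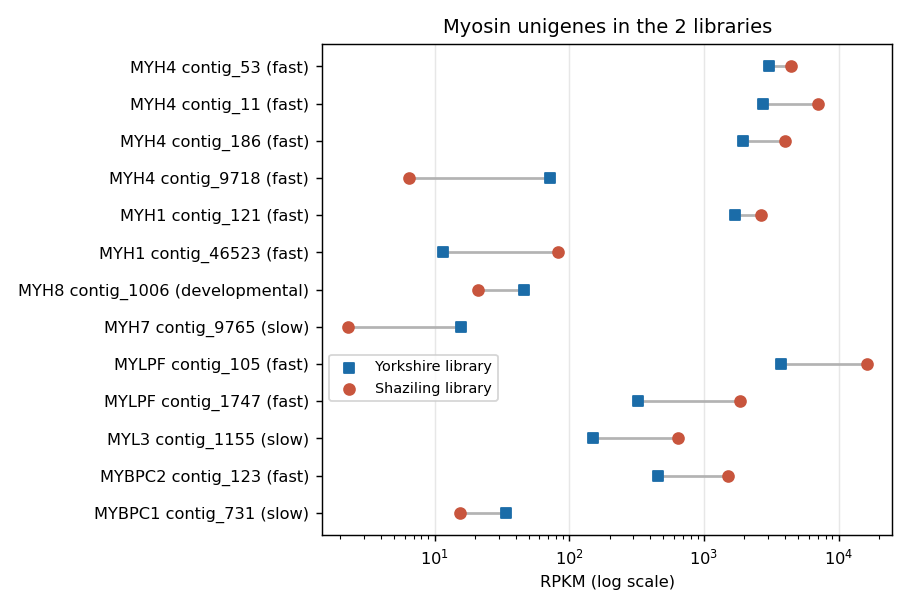
RPKM of the 13 myosin unigenes on a log scale, with a square for the Yorkshire library and a circle for the Shaziling library (1 value per breed, so there are no error bars). The Shaziling circle is to the right for 9 unigenes, and for MYH4 contig_9718, MYH8 contig_1006, MYH7 contig_9765 and MYBPC1 contig_731 it is to the left.

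The fast heavy chains were among the most abundant transcripts of both libraries. The longest MYH4 unigene, contig_53 (3633 bp), reached 3031 RPKM in Yorkshire (373813 reads) and 4420 RPKM in Shaziling (454508 reads). The Shaziling to Yorkshire ratio was 1.46 (95% interval 1.45 to 1.46), under the 2-fold limit, and 0.886 without the mitochondrial unigenes in the totals. The second MYH4 unigene matched to the same pig protein, contig_11 (2171 bp), reached 2748 RPKM in Yorkshire (202574 reads) and 6978 RPKM in Shaziling (428813 reads). The ratio was 2.54 (2.53 to 2.55). Within Yorkshire, contig_53 was thus slightly above contig_11, and within Shaziling it was below, with contig_53 to contig_11 ratios of 1.10 and 0.633, respectively. The change between these 2 fragments of the same gene was 1.74-fold (1.73 to 1.75), whatever the scaling.

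Another fragment, contig_186 (840 bp, MYH4_PIG in UniProt), reached 1946 RPKM in Yorkshire (55506 reads) and 3988 RPKM in Shaziling (94824 reads), a ratio of 2.05 (2.03 to 2.07). MYH1 was represented by contig_121 (807 bp), at 1688 RPKM in Yorkshire (46246 reads) and 2643 RPKM in Shaziling (60368 reads). The ratio of 1.57 (1.55 to 1.58) was close to that of contig_53, and it was 0.952 without the mitochondrial unigenes in the totals. The ratio of the IIb to the IIx heavy chain (contig_53 to contig_121) was 1.80 in Yorkshire and 1.67 in Shaziling, so that the Shaziling value was 0.931 times that of Yorkshire (0.920 to 0.944). The direction was the opposite with the other MYH4 fragments. With contig_11 the IIb to IIx ratio was 1.63 in Yorkshire and 2.64 in Shaziling, a 1.62-fold change (1.60 to 1.64), with contig_186 the change was 1.31-fold (1.29 to 1.33), and with the summed reads of each gene it was 1.16-fold (1.15 to 1.18). The relation of IIb to IIx therefore has no single direction in these data. MYH4, MYH1 and MYH2 are direct neighbours in the pig annotation (Sscrofa11.1) and encode closely similar proteins, so that the division of reads among their fragments is uncertain. Among the unigenes in the table, none was matched through RefSeq to MYH2, the heavy chain of type IIa fibres.

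The remaining heavy chain fragments were of lower abundance and had the extreme ratios of the group. A fragment named for dog MYH4, contig_9718 (640 bp), was at 72.0 RPKM in Yorkshire (1565 reads) and 6.51 RPKM in Shaziling (118 reads). It was 11.1 times higher in Yorkshire (9.17 to 13.4), the opposite direction to the other MYH4 fragments. In contrast, the MYH1 fragment contig_46523 (533 bp, MYH1_PIG) was at 11.6 RPKM in Yorkshire (209 reads) and 83.2 RPKM in Shaziling (1255 reads), a ratio of 7.20 (6.22 to 8.38). The relation of contig_46523 to the MYH1 fragment contig_121 thus changed 4.60-fold (3.97 to 5.35) between the libraries.

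MYH8, the perinatal chain, was represented by contig_1006 (2023 bp, MYH8_RAT). Its level was 45.9 RPKM in Yorkshire (3155 reads) and 20.9 RPKM in Shaziling (1198 reads), and it was 2.20 times higher in Yorkshire (2.05 to 2.35). Slow MYH7 was represented by a single short fragment, contig_9765 (669 bp, MYH7_PAPHA), at 15.7 RPKM in Yorkshire (357 reads) and 2.27 RPKM in Shaziling (43 reads). It was 6.92 times higher in Yorkshire (5.04 to 9.73). Both had less than 2% of the RPKM of contig_53 in each library.

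These fragments differed from the abundant ones in their protein match. The 4 abundant heavy chain unigenes were matched to nr proteins of 1894 to 1939 amino acids, the size of a whole heavy chain, and spanned 13.9% to 62.5% of that coding length. The other 4 (contig_9718, contig_46523, contig_1006 and contig_9765) were matched to proteins of only 62 to 121 amino acids and were themselves longer, at 176% to 567% of the coding length of the match. This division was made after the values were seen. The former held 99.2% of the heavy chain reads in Yorkshire and 99.7% in Shaziling, and their ratios lay between 1.46 and 2.54. The ratios of the latter ran from 0.0904 to 7.20. Their part of the unigene outside the match was not analysed here.

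**Figure D2:**
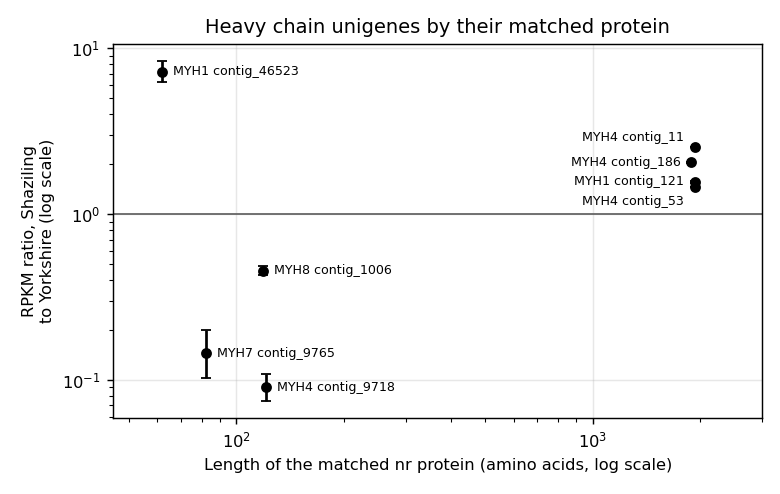
RPKM ratio of Shaziling to Yorkshire for the 8 heavy chain unigenes against the length of the matched nr protein in amino acids, both on log scales, with exact 95% intervals on the reads as bars and a line at a ratio of 1. The 4 unigenes matched to proteins of 1894 to 1939 amino acids lie between 1.46 and 2.54, and the 4 matched to proteins of 62 to 121 amino acids lie between 0.0904 and 7.20.

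Of the light chains, MYLPF was the most abundant member in both libraries. Its unigene contig_105 (744 bp, MLRS_RAT) reached 3743 RPKM in Yorkshire (94534 reads) and 16124 RPKM in Shaziling (339564 reads), and by RPKM its rank was 6 of all unigenes in Yorkshire and 1 in Shaziling. The ratio was 4.31 (4.28 to 4.34). The shorter fragment contig_1747 (295 bp), which was matched to the pig MYLPF protein itself, was at 325 RPKM in Yorkshire (3254 reads) and 1867 RPKM in Shaziling (15592 reads), a ratio of 5.75 (5.53 to 5.97). Both fragments were more than 2 times higher in Shaziling under each scaling, with lowest ratios of 2.62 and 3.49. The RPKM of contig_105 relative to that of the heavy chain contig_53 was 1.23 in Yorkshire and 3.65 in Shaziling, a change of 2.95-fold (2.93 to 2.98). Against contig_11 the change was 1.70-fold (1.68 to 1.71), against contig_186 it was 2.10-fold (2.08 to 2.13), and against the summed MYH4 reads the summed MYLPF reads changed 2.35-fold (2.33 to 2.37), so that MYLPF relative to MYH4 was higher in Shaziling with each of these fragments, by 1.70 to 2.95 times.

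The slow light chain MYL3 was represented by 1 unigene, contig_1155 (857 bp), matched to the pig protein of 197 amino acids. It was at 149.8 RPKM in Yorkshire (4357 reads) and 642 RPKM in Shaziling (15577 reads). Its ratio of 4.29 (4.15 to 4.44) was nearly that of the fast chain contig_105, and the lowest ratio under another scaling was 2.61. The fast essential light chain MYL1 is named in the authors' list for contig_208, which was not analysed here because it is outside the table.

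Fast myosin-binding protein C, MYBPC2, was assembled as a unigene of 4044 bp (contig_123), longer than the 3420 bp that code for its matched protein. It reached 458 RPKM in Yorkshire (62905 reads) and 1518 RPKM in Shaziling (173711 reads). The ratio was 3.31 (3.28 to 3.34), and 2.01 without the mitochondrial unigenes in the totals. The slow form MYBPC1 (contig_731, 1863 bp) was at 33.8 RPKM in Yorkshire (2137 reads) and 15.5 RPKM in Shaziling (820 reads). It was 2.17 times higher in Yorkshire (2.004 to 2.36), and the 2 forms of the protein therefore differed in opposite directions.

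**Figure D3:**
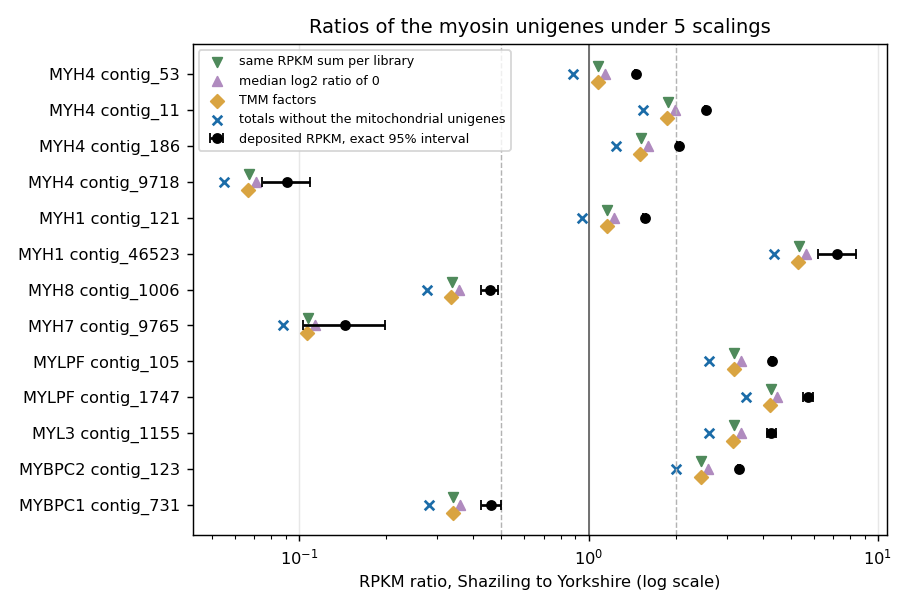
RPKM ratio of Shaziling to Yorkshire for each myosin unigene (log scale), as black circles with exact 95% intervals for the deposited values and as colored marks for the other scalings, which are set slightly apart in height. The solid line is a ratio of 1 and the dashed lines mark 2-fold differences. With totals that leave out the mitochondrial unigenes, contig_53 (0.886) and contig_121 (0.952) pass to the left of 1, whereas MYLPF, MYL3 and MYBPC2 stay at 2.01 or more.

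Fast and slow counterparts were compared within each library, with the reads of all fragments of a gene summed over their lengths. MYLPF was 18.5 times MYL3 in Yorkshire and 18.8 times MYL3 in Shaziling. With contig_105 alone the values were 25.0 and 25.1. The relation of the summed reads changed 1.02-fold, and the exact interval (0.981 to 1.05) included 1. MYBPC2 was 13.6 times MYBPC1 in Yorkshire and 97.6 times in Shaziling, a change of 7.20-fold (6.63 to 7.81). The fast heavy chains MYH1 and MYH4 together were 147.7 times the MYH7 fragment in Yorkshire and 1876 times in Shaziling, a change of 12.7-fold (9.24 to 17.9). The latter value rests on the 43 Shaziling reads of contig_9765, whose protein match was short (82 amino acids). With 1 unigene per gene the change was 10.2-fold (longest unigenes) or 16.3-fold (most abundant unigenes). In the light chains, fast and slow forms thus differed between the libraries to the same degree within counting error, whereas in the heavy chains and the binding proteins the slow fragment was higher in Yorkshire. MYBPC1 and the MYH7 fragment were both chosen by the authors for a difference, and the pair of MYLPF and MYL3 compares a regulatory with an essential light chain.

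**Figure D4:**
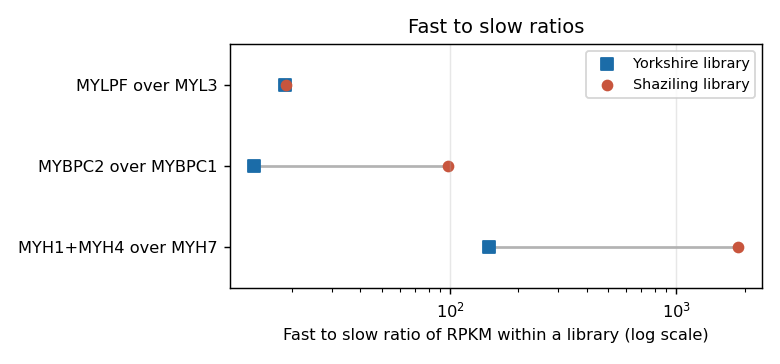
Ratio of the fast to the slow gene within each library on a log scale, with squares for Yorkshire and circles for Shaziling (1 value per breed). The points of MYLPF over MYL3 coincide at 18.5 and 18.8, and those of the other pairs lie apart, at 13.6 and 97.6 for MYBPC2 over MYBPC1 and at 147.7 and 1876 for the heavy chains over MYH7.

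In all, the 13 unigenes took 2.51% of all reads in Yorkshire (850612 reads) and 5.60% in Shaziling (1586391 reads). Without the mitochondrial unigenes in the totals, these shares were 4.67% and 6.36%. Fast members held 98.8% of these reads in Yorkshire and 98.9% in Shaziling. Heavy chain unigenes held 80.3% of the reads of the group in Yorkshire and 65.6% in Shaziling, and the share of MYLPF was 11.5% and 22.4%, respectively. The share of MYBPC2 was 7.40% in Yorkshire and 11.0% in Shaziling. The heavy chain share was therefore lower in Shaziling, and the shares of MYLPF and MYBPC2 were higher.

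**Figure D5:**
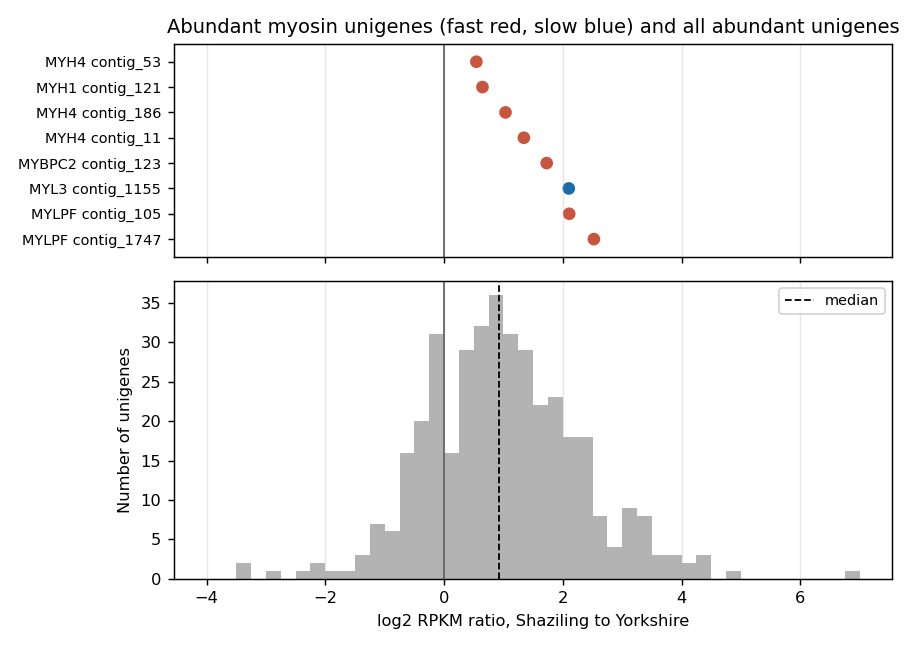
Log2 RPKM ratios of the 8 members that reached 100 RPKM in a library (top, fast in red and slow in blue) above the distribution of all 387 such unigenes (bottom, number of unigenes per bin, dashed line at the median). The members lie between 0.54 and 2.52, on both sides of the median of 0.93. Of them, contig_105 and contig_186 are members through the authors' list alone, so they had to differ by at least 2-fold. Those below the median, contig_53 and contig_121, are the members that are not on that list.

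Other genes of the sarcomere were taken through their RefSeq match from fixed lists, of which only part was matched. Of 4484 matched symbols, 4030 passed the RPKM minimum with their most abundant unigene, 39.1% of these were higher in Shaziling and 4.04% in Yorkshire by the 2-fold limit, and the median ratio was 1.60. Of 9 fast fibre myosin symbols, 4 were found, all members described above. Of 9 slow fibre myosin symbols, MYL3 alone was found. In the developmental list, 2 of 5 symbols were found. MYBPH, a relative of myosin-binding protein C, was at 84.9 RPKM in Yorkshire and 391 RPKM in Shaziling, a ratio of 4.60 (4.49 to 4.71), and MYL4, the embryonic and atrial light chain, had 2 and 10 reads. No unigene in the table was matched to the 9 symbols of non-muscle and smooth muscle myosins.

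Of the 11 symbols for thick filament assembly and the M-band, 5 were found, with 1 higher in Shaziling and 4 neither. UNC45B, a chaperone that folds the myosin head, was at 9.85 RPKM in Yorkshire and 33.8 RPKM in Shaziling, a ratio of 3.43 (3.26 to 3.61). TRIM63, a ubiquitin ligase of muscle, had a ratio of 1.77. The lowest ratio of this list was 1.04 for SMYD1, a methyltransferase needed for thick filament assembly, at 62.9 RPKM in Yorkshire and 65.2 RPKM in Shaziling. The M-band protein MYOM1, also of this list, had a ratio of 1.43, under the 2-fold limit. From the authors' list, where they were chosen for a difference, the M-band proteins MYOM2 and MYOM3 had ratios of 3.13 and 5.28. A fragment of titin, an elastic protein of the sarcomere and also from that list, was 3.49 times higher in Yorkshire.

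In the fast list of the thin filament and the Z-disc, 2 of 7 symbols were found. MYOZ1, a Z-disc protein of fast fibres, was at 348 RPKM in Yorkshire and 1524 RPKM in Shaziling, a ratio of 4.38, and MYOZ3 had a ratio of 1.79. In the slow list, 2 of 6 symbols were found. MYOZ2, the counterpart of MYOZ1 in slow fibres, was at 413 RPKM in Yorkshire and 135 RPKM in Shaziling, 3.05 times higher in Yorkshire, and ACTN2 had a ratio of 1.69. Troponins were likewise named through the authors' list. The fast troponins C (TNNC2), I (TNNI2) and T (TNNT3) had ratios of 2.74, 2.13 and 2.63, and the longer unigene of slow troponin I (TNNI1, contig_1459) was at 131 RPKM in Yorkshire and 446 RPKM in Shaziling, a ratio of 3.40 (3.29 to 3.51). A second TNNI1 unigene, contig_12631, had 1 read in Yorkshire and 172 reads in Shaziling, a ratio of 206 (36.5 to 8195). The fragments contig_2810 of skeletal actin and contig_1125 of nebulin, also from that list, had ratios of 12.9 (11.7 to 14.2) and 3.04 (2.89 to 3.20). The actin fragment was at only 14.9 RPKM in Yorkshire and 192 RPKM in Shaziling, and its ratio is given for that fragment alone.

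Markers of cells were read through the same RefSeq match. Of 7 skeletal muscle markers only desmin (DES) was matched, at 737 RPKM in Yorkshire and 1838 RPKM in Shaziling, and no unigene in the table was matched to the 6 heart muscle markers. Of 5 markers of blood 3 were matched, and all 3 were more than 2 times higher in Shaziling, as were 39.1% of all matched symbols over the RPKM minimum. The summed RPKM of these 3 was 54.0 in Yorkshire and 287 in Shaziling. Among them, HBB had a ratio of 11.2 and ALAS2 one of 10.6. Of 5 endothelial markers 3 were matched, and VWF was higher in Shaziling (0.521 against 10.5 RPKM) while PECAM1 and KDR had ratios of 1.36 and 1.53. For adipocytes, 2 of 7 were matched, FABP4 with a ratio of 1.86 and CIDEC with 8 and 28 reads. The 4 of 6 fibroblast markers that were matched had ratios from 0.505 to 1.24, and none of these 4 reached 2-fold. The part of these cells in the values of the myosins was not tested.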

How the data were processed

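RNA from the LM of 3 pigs per breed was sequenced by the authors, the trimmed reads were assembled with CLC Genomics Workbench and CAP3, and unigenes were matched to nr and UniProt proteins. The deposited counts are whole reads per unigene without normalization, and the program that counted them is not given in the sources used here. For the deposited RPKM values, the authors scaled reads by unigene length and library size in Qualimap. Reads, length and RPKM of each unigene were checked against each other. The submitters' processing notes also name CASAVA 1.8, TopHat2 2.0.6 and the mouse build mm10, with no role stated. Columns were taken by order, since 2 names in the header run together.

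Gene names came from RefSeq proteins of Sscrofa11.1 (5698 unigenes with 4484 symbols, accession versions ignored) and from UniProt names in the authors' list of differential unigenes. Through its names, that list also decided the membership of the unigenes named by it alone. It likewise decided which mitochondrial unigenes were left out of the totals. None of its values was used. Of the annotation, only gene names and the order of genes were used. Every member is reported. Beyond the members, the most abundant unigene represented a symbol, and the 2 highest ratios in each direction were named in each list of thick and thin filament genes matched through RefSeq. MYOM1 was named besides, to stand beside MYOM2 and MYOM3. No gene was named for likeness of pattern, since 2 libraries give 1 ratio. The members and lists were chosen with earlier results of these data known, and the troponins, MYOM2, MYOM3, titin, nebulin and actin from the authors' list, all that were found of those looked up, were added after their values were seen. The lists were fast, slow, developmental and non-muscle myosins, fast and slow thin filament and Z-disc genes, thick filament assembly, and markers of skeletal muscle, heart muscle, adipocytes, blood, endothelium and fibroblasts.

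With 1 library per breed, no test between breeds was possible. Ratios of RPKM values have exact Clopper-Pearson intervals on the reads, and ratios between unigenes have exact conditional intervals. A level of a gene is the summed reads over the summed length of its unigenes. Alternatives were folds of 1.5 and 3, no RPKM minimum or one of 10, a 300 bp length minimum, an exact binomial test on the reads with a false discovery rate of 0.05, other scalings (equal RPKM sum, median log2 ratio of 0, TMM from edgeR 4.0.16, totals without mitochondrial unigenes), RefSeq names only, and 1 unigene per gene. The mitochondrial unigenes left out of the totals were those named in the authors' list. Other MYH4 fragments for the ratios between genes were added after seeing the data. R 4.3.3 and Python 3.11.15 (pandas 2.3.3, scipy 1.17.1, numpy 2.4.6, matplotlib 3.10.9) were used.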

Additional observations from a re-analysis of the deposited data

How the results depend on the processing

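Of the 7 unigenes higher in Shaziling and the 4 higher in Yorkshire, 5 and 2, respectively, remained with a fold of 3. Shares over all unigenes are given at 2-fold with the deposited values only. The counts with a fold of 3 and with other scalings thus have no share to be set against. With RefSeq names only, 6 unigenes were counted, with 4 higher in Shaziling and 0 in Yorkshire. All 4 unigenes higher in Yorkshire are members through the authors' list alone, which was made for differences of at least 2-fold. With each other scaling the first count was 5, because contig_11 and contig_186 were then under 2-fold. The median ratio of the 5 genes of the RefSeq match, 3.31 with the deposited values, was 2.46 with the same RPKM sum, 2.59 with a median log2 ratio of 0, 2.44 with TMM and 2.01 with totals that leave out the mitochondrial unigenes. With 1 unigene per gene, the changes of the fast to slow ratios between the libraries stayed within their counting intervals, whereas the ratios within a library did not (MYLPF over MYL3 in Yorkshire, 18.5 and 25.0). The change of MYH4 over MYH1, 0.931 with contig_53, reversed to 1.62 with contig_11, 1.31 with contig_186 and 1.16 with gene sums, which were chosen after seeing the data. The number of reads limits the MYH7 fragment most, and the spread between pigs could not be estimated for any value. No paired analysis was possible because each breed has 1 library.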
